A study of Mus musculus with 19 samples.

Results

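The receptors for noradrenaline, serotonin, dopamine, histamine and acetylcholine were examined in individual neurons picked from the lateral hypothalamus of mice. Members were chosen by gene name: the adrenergic Adra1, Adra2 and Adrb genes, the serotonin Htr genes, the dopamine Drd genes, the histamine Hrh genes, the muscarinic Chrm genes and the nicotinic Chrn genes. The names matched 54 of 52636 gene rows, of which 53 were receptor genes and 1, Chrna1os, was an antisense transcript. Neurons had been hand-picked around the fornix of 7 male Agrp-IRES-Cre × Ai9 mice aged 6 to 8 weeks, in which fibres of Agrp neurons carry the red protein tdTomato and mark the borders of the area. The picked cells were themselves not fluorescent, and all animals came from this cross. Libraries had been made with Smart-SCRB, which tags each well's cDNA with a barcode, and sequenced to 135025 ± 38401 reads per cell (mean ± SD). No agent was given and there was no control genotype, so all comparisons are between kinds of neuron. The 19 plates of 96 wells served as samples, and since the labels do not say which mouse filled which plate, p-values measure the spread between plates only.

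Monoamines and acetylcholine reach the lateral hypothalamus from small groups of cells in the brainstem, the basal forebrain and the posterior hypothalamus, and they set the excitability of its neurons over the sleep and wake cycle. Most of their receptors couple to a G protein: Gi-coupled receptors lower cyclic AMP and open potassium channels, Gq-coupled receptors activate phospholipase C, and Gs-coupled receptors raise cyclic AMP. The nicotinic receptors and the serotonin receptors built from Htr3 subunits are ion channels. Hcrt neurons make the orexin (hypocretin) peptides, which sustain wakefulness, and Pmch neurons make melanin-concentrating hormone, known for its part in feeding and in sleep.

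Wells were kept when at least 1000 genes were seen, which left 1534 of 1612 wells, with 1835641 to 5067927 counts per plate. A well was called an Hcrt neuron or a Pmch neuron when that transcript made up at least 1% of its counts. Wells outside both gates were called GABA when Gad1 and Gad2, which make GABA, together had at least 5 counts, and other when they had fewer. This gave 1065 Hcrt wells, 68 Pmch wells, 327 GABA wells and 71 other wells, and 3 wells that passed both peptide gates were left out. The glutamate transporter Slc17a6 was seen in 88.5% of Hcrt, 70.6% of Pmch, 6.73% of GABA and 69.0% of other wells, and the GABA transporter Slc32a1 in 2.44%, 1.47%, 62.4% and 2.82%. The 3 genes of the GABAergic list summed to a pooled 470.5 CPM (counts-per-million counts) in Pmch wells, against 47.4 in Hcrt wells. Oligodendrocyte genes reached 1612.5 CPM in 1 plate's Hcrt wells and 11070 in 1 plate's other wells, where the pan-neuronal list was as low as 194.7. A stricter neuron gate kept 1510 of the 1534 wells and is given below where it changed a call.

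Levels below are CPM of a class, from counts summed over its wells on a plate, and are not scaled to gene length. Plates with at least 3 wells of a class entered the tests: 19 for Hcrt, 13 for Pmch, 16 for GABA and 10 for other. Counts of the 54 members over all wells of the 4 classes were all above 0. The test covered 31 members, and the remaining 23 had 4 to 32 counts each, too few to be compared. Of the 31, 19 differed in at least 1 of the 6 comparisons between classes and 16 in at least 2, beside 50.4% and 33.9% of all genes tested. All differences are log2 fold changes ± SE from edgeR's quasi-likelihood test with the plate as a block, with p-values adjusted by Benjamini-Hochberg over 16529 genes.

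Upstream sequences of 4 receptor genes follow, as examples from both directions of the comparison between the 2 peptide classes, chosen after their values were seen. Htr1a and Drd1 were higher in Hcrt neurons than in Pmch neurons, and Hrh3 and Chrna3 were higher in Pmch neurons. The stretches come from the RefSeq promoter table on GRCm38.p6, run 5′ to 3′ on the gene's strand and stop before the GENCODE M21 gene model begins. They cover chr13:105443443-105443638 (Htr1a, plus strand), chr13:54055706-54055908 (Drd1, minus strand), chr2:180104489-180104657 (Hrh3, minus strand) and chr9:55026563-55026812 (Chrna3, minus strand). Capitals mark the GC box GGGCGG on either strand.
Htr1a: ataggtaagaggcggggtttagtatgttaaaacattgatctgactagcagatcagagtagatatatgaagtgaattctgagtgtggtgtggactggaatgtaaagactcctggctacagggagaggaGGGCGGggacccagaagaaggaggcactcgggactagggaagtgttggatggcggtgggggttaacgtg
Drd1: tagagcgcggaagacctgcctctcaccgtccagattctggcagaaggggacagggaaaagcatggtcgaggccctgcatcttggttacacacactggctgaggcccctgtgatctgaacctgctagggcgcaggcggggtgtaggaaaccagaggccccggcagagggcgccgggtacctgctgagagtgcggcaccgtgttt
Hrh3: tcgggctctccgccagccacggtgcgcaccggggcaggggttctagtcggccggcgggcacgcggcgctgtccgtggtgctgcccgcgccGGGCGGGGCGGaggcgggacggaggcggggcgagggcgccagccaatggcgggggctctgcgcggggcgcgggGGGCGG
Chrna3: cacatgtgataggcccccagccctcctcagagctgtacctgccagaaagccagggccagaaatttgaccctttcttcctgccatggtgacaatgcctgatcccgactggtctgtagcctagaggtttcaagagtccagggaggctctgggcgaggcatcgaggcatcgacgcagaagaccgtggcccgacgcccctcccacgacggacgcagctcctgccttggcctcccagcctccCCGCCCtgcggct
Over the full 250 bases before the RefSeq start, GGGCGG was found 4 times for Hrh3, in 2 cases overlapping by 1 base, once each for Htr1a and Chrna3, and not for Drd1 or Adra1b. One of the Hrh3 matches lies inside the GENCODE gene model and is not printed. Among all 32851 promoters of that length, 32.7% held it. The other motifs searched on both strands were TAATTA (4.84% of promoters), CACGTG (6.02%) and TGACGTCA (1.55%), and none of them was in the windows of these 5 genes. G and C made up 80.8% of the Hrh3 window, 63.2% for Chrna3, 64.0% for Drd1, 50.4% for Htr1a and 41.6% for Adra1b. A match is a run of letters only, and its absence says nothing of the factor that binds it.

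Hcrt neurons differed from GABA neurons in 13 of the 31 receptor genes tested, 4 higher in Hcrt neurons and 9 higher in GABA neurons. Over all genes 34% were called in this comparison, 10.5% higher in Hcrt and 23.5% higher in GABA. The median log2 difference of the 31 members was -0.47, against -0.20 over all genes. Against Pmch neurons, Hcrt neurons differed in 13 members, 3 higher in Hcrt and 10 higher in Pmch, where 19.3% of all genes were called, 8.14% higher in Hcrt and 11.1% higher in Pmch. Here the members' median was -0.40, against 0.07 over all genes. Pmch neurons had 6 members higher and 1 lower than GABA neurons, with 21.4% of all genes called, 8.24% higher in Pmch and 13.1% higher in GABA, and medians of -0.32 for members and -0.27 for all genes. These comparisons share classes, so their counts are not separate evidence. With scaling factors taken from all tested genes instead of abundant genes, the median of all genes moved from -0.20 to 0.05 in Hcrt against GABA and from 0.07 to 0.46 in Hcrt against Pmch. The share of calls that were higher in Hcrt then went from 31.0% to 55.3% and from 42.3% to 77.4%, while the members split 4 to 8 and 3 to 9.

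**Figure D1:**
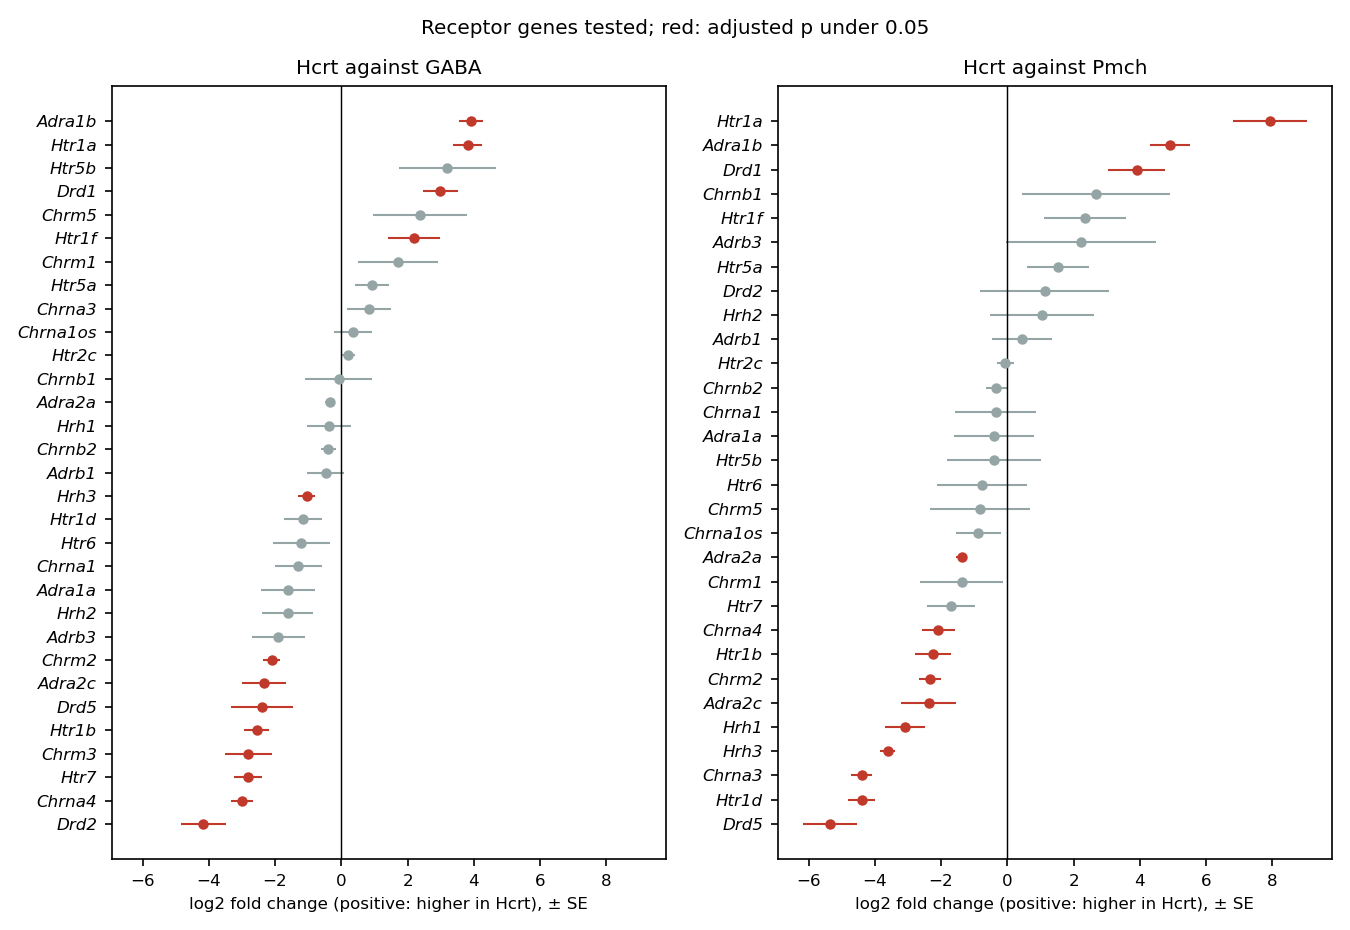
Log2 fold change ± SE (horizontal axis) of the tested members, Hcrt against GABA neurons on the left and Hcrt against Pmch neurons on the right, with adjusted p under 0.05 in red. Chrm3, at 0.0087 with no SE in Hcrt against Pmch, is not drawn on the right. Adra1b, Htr1a and Drd1 lie to the right of 0 in both panels, and Hrh3, Chrm2, Chrna4, Htr1b, Adra2c and Drd5 lie to the left in both.

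Among adrenergic receptors, Adra1b, Adra2a, Adra2c and Adra1a differed between classes. Adra1b (ENSMUSG00000050541, chr11:43774606-43901210), a Gq-coupled receptor for noradrenaline, was higher in Hcrt neurons than in each of the other classes. Its level in Hcrt wells ran from 14.9 through a median of 26.6 to 42.3 CPM over 19 plates. In Pmch wells it ran from 0 to 8.51 with a median of 0, in GABA wells from 0 to 17.8 with a median of 0, and in other wells from 0 to 33.9 with a median of 2.52. Every Hcrt plate lay above every Pmch plate, while the ranges overlapped with those of the other two classes. The difference was 3.91 ± 0.36 against GABA (adjusted p = 6.64e-16, higher in 16 of 16 plates), 4.90 ± 0.61 against Pmch (adjusted p = 1.74e-10, 13 of 13) and 2.37 ± 0.63 against other (adjusted p = 0.00391, 8 of 10). Over pooled counts, Hcrt wells held 16.1 times the GABA level, with an interval of 9.88 to 28.2, and 20.3 times the Pmch level, with an interval of 9.31 to 55.5. These intervals are 95% exact intervals that cover counting error only.

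Adra2a (ENSMUSG00000033717, chr19:54044151-54048982), the Gi-coupled receptor that slows neurons when noradrenaline is released, had the most counts of any member, and all 3 named classes carried it. It ran from 26.1 through 121 to 161 CPM in Pmch wells, from 40.9 through 71.5 to 205 in GABA wells and from 29.6 through 44.5 to 75.3 in Hcrt wells. In other wells 6 of 10 plates were at 0 and the highest was 25.7, below every plate of the Hcrt, GABA and Pmch classes. Pmch neurons exceeded Hcrt neurons by 1.38 on the log2 scale (Hcrt minus Pmch, -1.38 ± 0.17, adjusted p = 4.15e-10, 12 of 13 plates) and GABA neurons by 1.04 ± 0.20 (adjusted p = 2.81e-05, 8 of 12 plates). Hcrt and GABA neurons did not differ past the threshold, at -0.34 ± 0.16 (adjusted p = 0.0912). That value passed it without plate 4 (-0.45, adjusted p = 0.0166) and under 3 other settings. Against other wells the difference was 2.96 ± 0.53 for Hcrt, 3.31 ± 0.52 for GABA and 4.34 ± 0.48 for Pmch (adjusted p = 1.02e-05, 2.07e-06 and 3.75e-11).

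The Gi-coupled Adra2c (chr5:35278319-35281763) was sparse and was lower in Hcrt neurons, with plates from 0 to 2.34 CPM, than in GABA neurons, from 0 to 14.3 CPM. The difference was -2.33 ± 0.67 (adjusted p = 0.00371), though only 9 of 16 plates showed it, and it fell away when wells outside the peptide gates had to be below 0.2% for both peptides (-0.58, adjusted p = 0.722). The call against Pmch neurons (-2.37 ± 0.84, adjusted p = 0.0320) was lost with DESeq2 (adjusted p = 0.128) and without plate 2, 8 or 18, with -1.41 and an adjusted p of 0.379 without plate 8. Most plates went against it: of 13, 8 were higher in Hcrt and 4 higher in Pmch, and 9 Pmch plates were at 0. Adra1a (chr14:66635251-66771168), a Gq-coupled relative of Adra1b, was higher in other wells than in each named class. There it ran from 0 through 13.2 to 164 CPM, with 4 of 10 plates at 0, whereas no Hcrt plate passed 2.88 and no Pmch or GABA plate passed 7.17. The Hcrt minus other difference was -5.85 ± 0.73 (adjusted p = 1.33e-09), and -5.96 among wells that passed the neuron gate. With GABA minus other at -4.25 ± 0.73 (adjusted p = 1.49e-05) and Pmch minus other at -5.45 ± 0.96 (adjusted p = 1.42e-05), other wells were again higher, but both calls were lost when a class needed 5 wells on a plate (adjusted p = 0.0558 and 0.0658). The beta receptors Adrb1 and Adrb3 were tested and not called, and Adra1d and Adra2b had too few counts.

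Among serotonin receptors, 6 of 9 tested were called in at least 1 of the 6 comparisons, beside 50.4% of all genes. Members of the Gi-coupled Htr1 group went in different directions. Htr1a (ENSMUSG00000021721, chr13:105443639-105448122), whose activation opens potassium channels, was higher in Hcrt than in GABA and Pmch neurons, at 9.32 to 41.6 CPM over plates with a median of 25.6. All 13 Pmch plates were at 0, and GABA plates ran from 0 to 20.7 with 9 of 16 at 0. The Hcrt minus GABA difference was 3.81 ± 0.43 (adjusted p = 4.62e-12, higher in 16 of 16 plates). Over all 68 Pmch wells, including plates with fewer than 3, Htr1a had 4 counts, all in the same well. The Hcrt level over pooled counts was 27.1 times the Pmch level, with an interval of 10.6 to 99.7 that takes those counts as independent. On the plates tested, where Pmch was at 0 throughout, Hcrt minus Pmch was 7.93 ± 1.11 (adjusted p = 1.14e-08). In other wells 3 of 10 plates held Htr1a, up to 59.5 CPM, and the Pmch minus other call (-6.73 ± 1.84, adjusted p = 0.00682) was lost without plate 3 or plate 9 (adjusted p = 0.0517 and 0.0656). Hcrt minus other was not called, at 1.20 ± 0.57 (adjusted p = 0.147). Htr1f (chr16:64924729-65105854) was also higher in Hcrt than in GABA neurons, by 2.19 ± 0.78 (adjusted p = 0.0238). Its Hcrt plates ran from 0.374 to 10.4 CPM and its GABA plates from 0 to 4.09, 14 of 16 plates in that direction, and without plate 14 it missed the threshold (1.95, adjusted p = 0.0648), as it did with DESeq2 (adjusted p = 0.0766). For Htr1f neither Hcrt minus Pmch (2.35 ± 1.25, adjusted p = 0.208) nor Hcrt minus other (-0.49 ± 0.98, adjusted p = 0.787) was called.

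Htr1d (ENSMUSG00000070687, chr4:136423524-136444398) was higher in Pmch neurons than in Hcrt and GABA neurons. It ran from 4.25 through 35.8 to 63.9 CPM in Pmch wells and from 0 through 1.40 to 3.75 in Hcrt wells, with no overlap. Against Hcrt neurons the difference was 4.40 on the log2 scale (Hcrt minus Pmch, -4.40 ± 0.40, adjusted p = 1.81e-16), and against GABA neurons, whose plates ran from 0 to 12.2 CPM, 3.23 ± 0.49 (adjusted p = 7.35e-08, 12 of 12 plates). Hcrt minus other was -2.74 ± 0.85 (adjusted p = 0.0142), and was not called without plate 4 or plate 9 (adjusted p = 0.135 and 0.0899). In other wells Htr1d ran from 0 through 1.44 to 54.3 CPM. Pmch minus other was not called, at 1.65 ± 0.65 (adjusted p = 0.0777, higher in Pmch on 5 of 8 plates). Htr1b (chr9:81628291-81633828), which sits on axon terminals and reduces release, was lower in Hcrt neurons, at 0.292 to 8.92 CPM, than in GABA neurons, at 0 through 6.08 to 36.6. That difference was -2.56 ± 0.37 (adjusted p = 2.08e-08, 12 of 16 plates). Hcrt minus Pmch was -2.24 ± 0.53 (adjusted p = 0.000731), although 7 of 13 plates were higher in Hcrt and 7 of 13 Pmch plates were at 0. That call was lost with DESeq2 (-1.498, adjusted p = 0.0830) and with edgeR's trended dispersions (-1.45, adjusted p = 0.107). The GABA minus other difference of 4.03 ± 1.24 (adjusted p = 0.0290) did not hold without plate 4, 9 or 14 (adjusted p = 0.0731, 0.0625 and 0.168) or among gated neurons (adjusted p = 0.133).

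Htr2c (ENSMUSG00000041380, chrX:146962513-147197277), the Gq-coupled receptor through which serotonin acts on feeding circuits, was not called between any pair of the 3 named classes. Plate medians were 45.9 CPM in Hcrt (29.2 to 80.8), 34.5 in Pmch (15.0 to 104.5) and 49.5 in GABA (0 to 109.01). Hcrt minus GABA was 0.19 ± 0.21 (adjusted p = 0.533), Hcrt minus Pmch -0.06 ± 0.26 (adjusted p = 0.908) and Pmch minus GABA 0.25 ± 0.30 (adjusted p = 0.602), which does not show that the levels were equal. In other wells 7 of 10 plates were at 0 and the rest reached 45.6 CPM, a difference of 2.36 ± 0.56 from Hcrt, 2.17 ± 0.58 from GABA and 2.42 ± 0.61 from Pmch (adjusted p = 0.00108, 0.00889 and 0.00306). The GABA call was lost without plate 14 (1.84, adjusted p = 0.0584) and among gated neurons (adjusted p = 0.0587). Htr7 (chr19:35958734-36057507), a Gs-coupled receptor, was higher in GABA neurons, at 0 through 12.9 to 21.1 CPM, than in Hcrt neurons, at 0 through 0.866 to 4.28. The Hcrt minus GABA difference was -2.82 ± 0.42 (adjusted p = 3.33e-08, 13 of 16 plates). Htr5a, Htr5b and Htr6 were tested and not called, and the Htr3 channel subunits, Htr2a, Htr2b and Htr4 fell below the count limit.

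**Figure D2:**
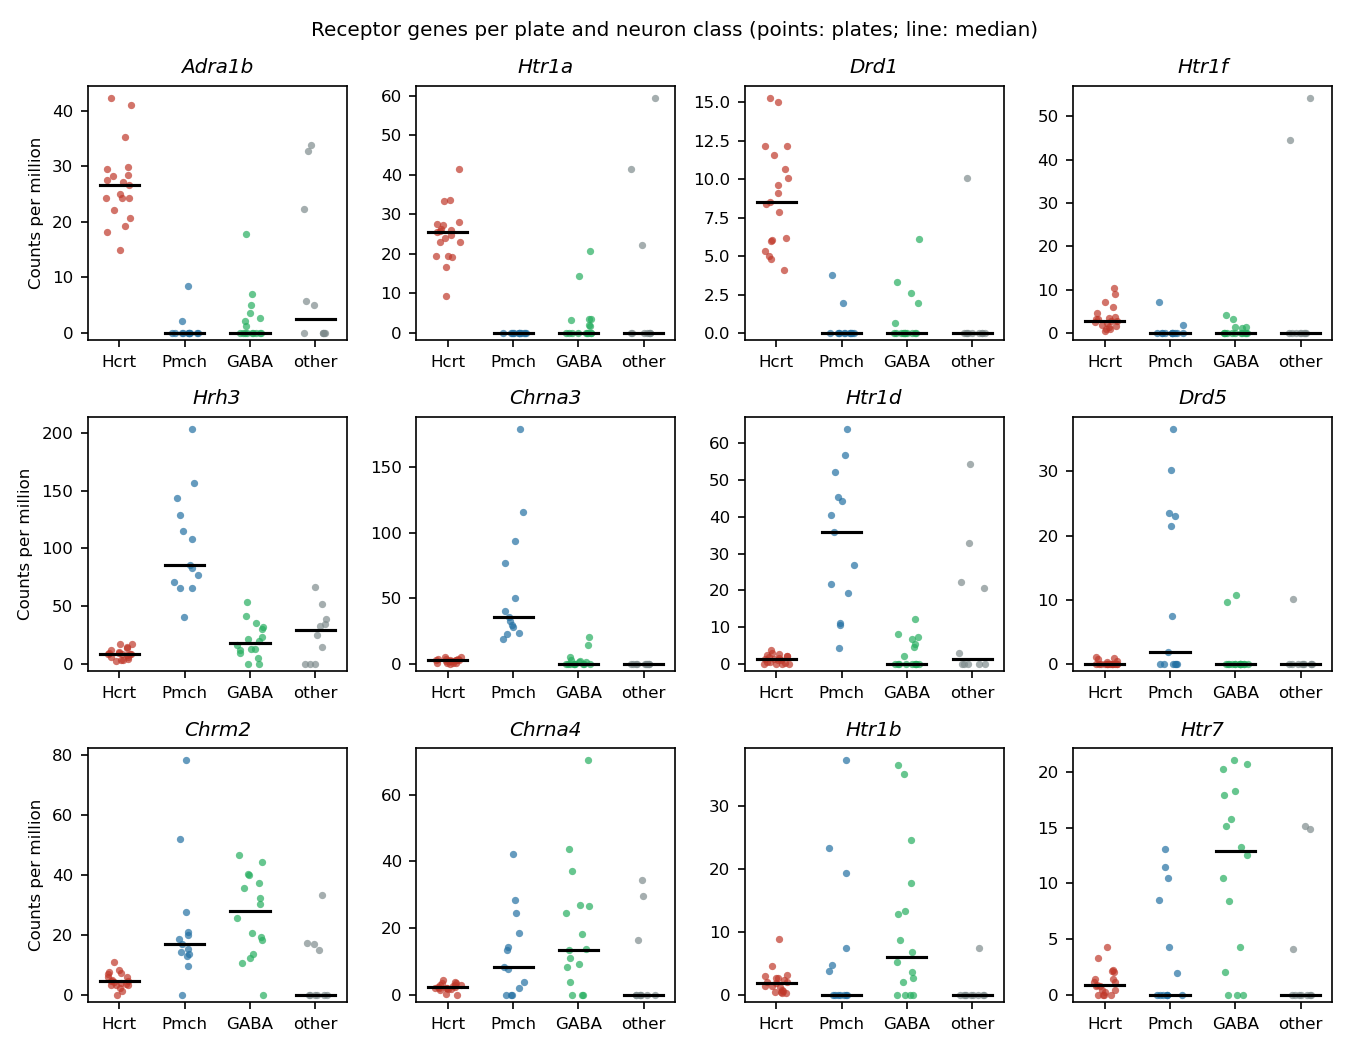
CPM of 12 receptor genes (vertical axes, each from 0) by neuron class, 1 point per plate with at least 3 wells of the class, and a line at the median over plates. Adra1b, Htr1a and Drd1 in Hcrt plates lie above all Pmch plates, and Hrh3, Chrna3 and Htr1d in Pmch plates lie above all Hcrt plates.

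Drd1, Drd5 and Drd2 were the dopamine receptors called. Differences from other wells missed the threshold for Drd1 in Hcrt, Drd5 in Pmch and Drd2 in GABA neurons (adjusted p = 0.0955, 0.0525 and 0.192). Drd1 (ENSMUSG00000021478, chr13:54051183-54055705), which couples to Gs, ran from 4.09 through 8.52 to 15.3 CPM in Hcrt wells, with no plate at 0. It was at 0 on 11 of 13 Pmch plates and 11 of 16 GABA plates, whose highest values were 3.76 and 6.13 CPM. Hcrt minus GABA was 2.99 ± 0.53 (adjusted p = 5.40e-06, 15 of 16 plates) and Hcrt minus Pmch 3.91 ± 0.86 (adjusted p = 0.000308, 13 of 13 plates, no overlap). Drd5 (chr5:38319367-38322518), the other Gs-coupled dopamine receptor, was highest in Pmch wells, at 0 through 1.94 to 36.6 CPM. It was at 0 on 14 of 19 Hcrt plates, 14 of 16 GABA plates and 6 of 13 Pmch plates, so the gene was split among Pmch plates as well. Hcrt minus Pmch was -5.36 ± 0.81 (adjusted p = 2.11e-07), but DESeq2 gave an adjusted p of 0.234. Pmch minus GABA was 2.96 ± 0.82 (adjusted p = 0.00511), which was lost without plate 8 (2.06, adjusted p = 0.111). DESeq2 lost this call too (adjusted p = 0.529). So did a limit of 0.2% for both peptides in wells outside the gates (adjusted p = 0.123). The Hcrt minus GABA call (-2.40 ± 0.93, adjusted p = 0.0382) was lost without plate 4, 9 or 17 (adjusted p = 0.332, 0.224 and 0.0506). DESeq2, edgeR's trended dispersions and scaling over all tested genes lost it as well (adjusted p = 0.653, 0.240 and 0.0554). Of 16 plates with both classes, 3 were higher in Hcrt and 2 higher in GABA. Drd2 (chr9:49340627-49408177), the Gi-coupled dopamine receptor, was found in GABA wells, with 56 counts and plates from 0 through 3.82 to 13.2 CPM. Hcrt wells held 7 counts among 53700608, and Pmch and other wells held none. The GABA level was 46.5 times the Hcrt level over pooled counts (Hcrt minus GABA, -4.16 ± 0.68, adjusted p = 1.55e-06), with an interval of 21.1 to 121. DESeq2 put that difference at -4.88 with an adjusted p of 0.0544. The GABA level was at least 8.83 times that in Pmch wells, taking 3 counts over the class as the limit for 0. The Pmch minus GABA call (adjusted p = 0.0361) was lost without any one of plates 3, 4, 5, 8, 13, 18 and 19, with an adjusted p of up to 0.0736. Drd3 and Drd4 were too sparse to test.

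Among the 6 receptor families, the summed histamine receptors had the largest ratio of Pmch to Hcrt level, with 122.8 CPM summed over 4 genes against 10.9 in Hcrt wells. Hrh3 (ENSMUSG00000039059, chr2:180099465-180104488), the Gi-coupled receptor that restrains histamine release, accounted for 484 of the 537 counts. It ran from 41.1 through 85.3 to 204 CPM in Pmch wells, from 2.99 through 8.66 to 17.7 in Hcrt wells, from 0 through 18.2 to 53.7 in GABA wells and from 0 through 29.2 to 66.9 in other wells. The lowest Pmch plate was above the highest Hcrt plate, and Hcrt minus Pmch was -3.62 ± 0.22 (adjusted p = 3.88e-25). Pmch neurons also exceeded GABA neurons, by 2.57 ± 0.26 (adjusted p = 1.60e-13, 12 of 12 plates), and other wells, by 2.29 ± 0.39 (adjusted p = 5.58e-06, 8 of 8 plates). The Hcrt minus GABA difference was smaller, -1.05 ± 0.26 (adjusted p = 0.000803). Hcrt minus other, -1.33 ± 0.47 (adjusted p = 0.0377), was lost without plate 2, 3, 4, 8 or 9 and with scaling over all genes (-0.70, adjusted p = 0.300). An exon of the uncharacterized gene Gm17180 overlaps Hrh3 on the opposite strand, and whether the counting used strand is not given in the sources used here.

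Hrh1 (chr6:114397936-114483296), the Gq-coupled receptor through which histamine excites neurons, had a median of 7.52 CPM in Pmch wells (0 to 52.3) against 1.52 in Hcrt wells (0 to 4.69) and 0 in GABA wells (0 to 15.2). Hcrt minus Pmch was -3.10 ± 0.60 (adjusted p = 2.43e-05) and Pmch minus GABA was 2.73 ± 0.71 (adjusted p = 0.00226). Both were lost when a class needed 5 wells on a plate (adjusted p = 0.282 and 0.417). Pmch minus other was not called, at 0.23 ± 0.77 (adjusted p = 0.896). Over pooled counts other wells held 1.42 times the Pmch level, with an interval of 0.882 to 2.24. Hcrt minus other, -2.87 ± 0.86 (adjusted p = 0.0109), was lost without plate 3 or 18 (adjusted p = 0.137 and 0.140) and with DESeq2 (adjusted p = 0.0768). Of 10 plates with both classes, 5 were higher in Hcrt and 4 higher in other wells. Hrh2 was tested and not called, and Hrh4 had too few counts.

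Muscarinic receptors summed over 5 genes were lower in Hcrt wells, at a pooled 7.02 CPM, than in GABA (33.9), Pmch (27.4) and other wells (27.4). The plate medians of Hcrt and other wells were closer, at 6.54 and 7.43 CPM. Chrm2 (ENSMUSG00000045613, chr6:36388084-36528414), the Gi-coupled member, made up most of these sums. Its plates ran from 0 through 4.57 to 11.1 CPM in Hcrt wells, from 0 through 28.1 to 46.5 in GABA wells and from 0 through 17.01 to 78.4 in Pmch wells. Hcrt minus GABA was -2.11 ± 0.25 (adjusted p = 2.56e-11, 15 of 16 plates) and Hcrt minus Pmch was -2.34 ± 0.34 (adjusted p = 3.60e-08, 12 of 13 plates). Hcrt minus other was not called for Chrm2, at -1.11 ± 0.60 (adjusted p = 0.220), with 6 of 10 plates higher in Hcrt. The opposite-strand gene 9330158H04Rik shares exon bases with Chrm2, as D430036J16Rik does with Htr1b and Gm26560 with Drd5. Chrm3 (chr13:9875486-10360847), a Gq-coupled receptor, had 18 counts in all Hcrt wells and 27 in the fewer GABA wells, a difference of -2.80 ± 0.71 (adjusted p = 0.00117, 11 of 16 plates). Chrm1 and Chrm5 were not called, and Chrm4 was not tested.

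Nicotinic subunits assemble into cation channels, and most alpha subunits need partners such as Chrnb2 or Chrnb4. Chrnb2 (chr3:89746195-89764632) was not called in any comparison: its plate medians were 16.8 CPM in Hcrt, 13.6 in Pmch, 23.8 in GABA and 27.6 in other wells, with the smallest adjusted p over the 6 comparisons at 0.105. It shares exon bases with Adar on the opposite strand. Chrna3 and Chrna4 were the nicotinic subunits called. Chrna3 (ENSMUSG00000032303, chr9:55010111-55026562) ran from 19.4 through 35.8 to 179 CPM in Pmch wells and from 0.291 through 2.68 to 5.62 in Hcrt wells, with no overlap. GABA plates ran from 0 to 20.7 CPM with 9 of 16 at 0, and all 10 other plates were at 0. Hcrt minus Pmch was -4.39 ± 0.32 (adjusted p = 1.62e-19), and Pmch minus GABA was 5.22 ± 0.50 (adjusted p = 3.85e-14, 12 of 12 plates). Pooled over all other wells, Chrna3 had 2 counts, and the Pmch level was 53.0 times theirs, with an interval of 14.5 to 440. On the plates tested, Pmch minus other was 8.76 ± 1.46 (adjusted p = 4.95e-06). Chrna4 (ENSMUSG00000027577, chr2:181018380-181043546) ran from 0 through 13.6 to 70.5 CPM in GABA wells, from 0 through 8.51 to 42.2 in Pmch wells and from 0 through 2.34 to 4.57 in Hcrt wells. Neither GABA minus other (0.70 ± 0.57, adjusted p = 0.573) nor Pmch minus GABA (-0.92 ± 0.44, adjusted p = 0.132) was called. Hcrt minus GABA was -3.00 ± 0.34 (adjusted p = 1.66e-12, 13 of 16 plates) and Hcrt minus Pmch was -2.08 ± 0.50 (adjusted p = 0.000699, 10 of 13 plates). Hcrt minus other, -2.30 ± 0.74 (adjusted p = 0.0186), was lost without plate 3 or 14 (adjusted p = 0.0558 and 0.499) and with DESeq2 (adjusted p = 0.109). Of 10 plates with both classes, 6 were higher in Hcrt and 3 higher in other wells, against the direction of that call.

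Chrna3 lies between Chrna5 (chr9:54980880-55007779) and Chrnb4 (chr9:55028154-55048779). Chrnb4, which was too sparse to test and is named after its values were seen, had 15 counts in Pmch wells and 8 in the far more numerous Hcrt wells. The pooled Pmch level was 23.0 times the Hcrt level, with an interval of 9.16 to 62.7, but 10 of 13 Pmch plates were at 0. Chrna5 had 13 counts in Hcrt wells and none in Pmch wells, both below the level of 3 counts in Pmch wells, so no difference was detectable at this depth. Of the other nicotinic subunits, Chrna1 and Chrnb1 were tested and not called, and the antisense transcript Chrna1os was not called either.

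Wells outside both peptide gates with few Gad counts were the smallest tested class. Against them, Hcrt neurons had 3 members higher and 5 lower, where 17.2% of all genes were called, 3.62% higher in Hcrt and 13.6% higher in other. With scaling over all tested genes the members split 5 to 3 instead, the median of all genes moved from -0.25 to 0.39, and the share of all calls higher in Hcrt went from 21.03% to 72.4%. GABA neurons had 3 members higher and 1 lower, with 7.41% of all genes called, 1.64% higher in GABA and 5.77% higher in other. Pmch neurons had 4 higher and 2 lower, with 13.3% called, 3.91% higher in Pmch and 9.37% higher in other. Scaling over all tested genes moved the share of calls higher in the first class from 22.1% to 69.0% and from 29.5% to 53.0%, and the members then split 4 to 1 and 7 to 2. DESeq2's size factors put the share for GABA against other at 41.6%. Of the non-neuronal lists, mural genes reached 399.1 CPM and astrocyte genes 447.8 CPM in other wells of 1 plate, while Rgs5, Vtn, Aqp4 and Gfap were at 0. Whether those transcripts bear on Adra1a was not tested beyond the neuron gate, under which its difference from Hcrt neurons was as large.

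Depth differed between classes, with medians of 45722 counts per well in Hcrt, 59063 in Pmch, 24486 in GABA and 24969 in other wells. Each well was therefore thinned to 16000 counts outside Hcrt and Pmch before shares of wells were taken. This left 1002 Hcrt, 68 Pmch, 270 GABA and 60 other wells, with 63, 0, 57 and 11 wells too shallow. At that depth 15 receptor genes were seen in at least 10% of the wells of some class. Adra1b was seen in 28.9% of Hcrt wells (26.1 to 31.9%, exact 95% interval), 2.94% of Pmch, 2.22% of GABA and 3.33% of other wells. Htr1a gave 29.1% (26.3 to 32.1%), 1.47%, 2.59% and 5%, and Drd1 gave 10.5%, 0%, 1.48% and 1.67%, where 0 of 68 Pmch wells allows up to 5.28%. Without thinning the Hcrt shares were 45.0%, 44.1% and 19.1%.

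Pmch wells showed a different set. Hrh3 was seen in 79.4% of them (67.9 to 88.3%), Adra2a in 75.0% (63.0 to 84.7%), Chrna3 in 50% (37.6 to 62.4%) and Htr1d in 38.2% (26.7 to 50.8%). Without thinning these were 89.7%, 89.7%, 63.2% and 54.4%. The same genes were seen in 13.6%, 40.9%, 3.69% and 2.096% of Hcrt wells. Adra2a and Htr2c were in 36.7% and 29.6% of GABA wells and in 6.67% and 11.7% of other wells. The pooled wells labelled as spike-in RNA or as empty showed no member in more than 1.92%, at a median of 172 counts. In the 21 labelled Empty, Chrm2 was in 2 wells, 1 of which held 5682 genes. The median number of receptor genes per thinned well was 2 in Hcrt, 4 in Pmch, 2 in GABA and 1 in other wells, and 7.39%, 0%, 11.5% and 26.7% of wells showed none. Among the 51 thinned other wells that passed the neuron gate the median was 2, as in Hcrt and GABA wells, and 17.6% showed none.

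**Figure D3:**
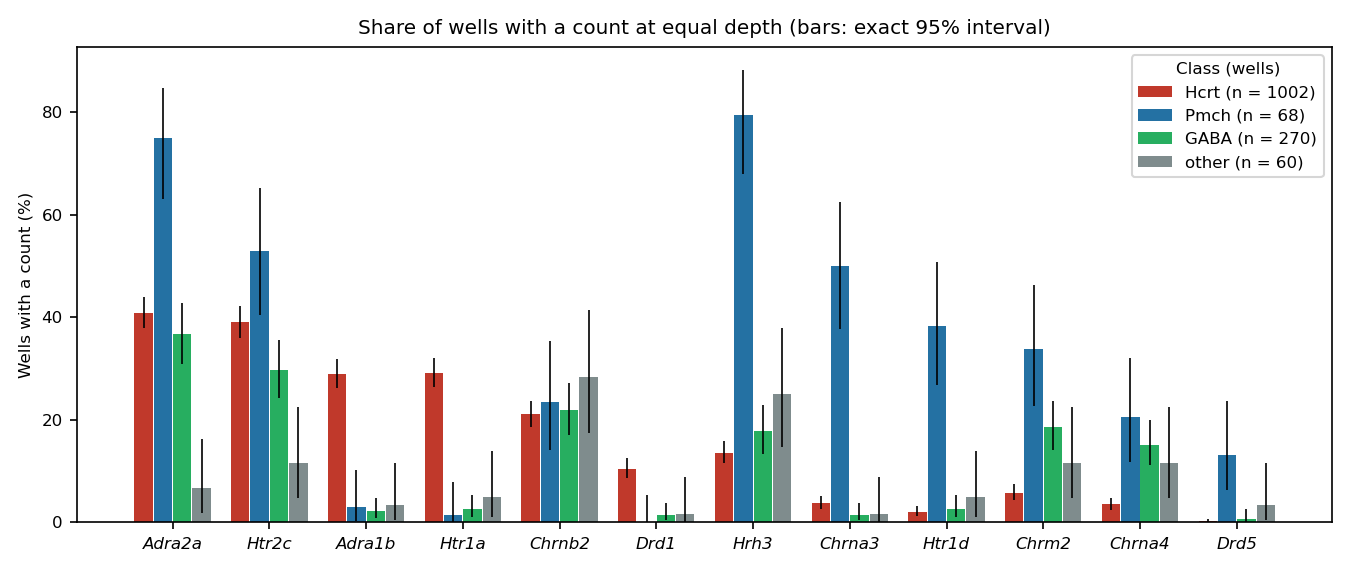
Share of wells with at least 1 count of each receptor gene (vertical axis, percent) after thinning every well to the same depth, by class, with exact 95% intervals as error bars. Adra1b and Htr1a reach 28.9% and 29.1% of Hcrt wells and at most 5% of every other class, and Hrh3 reaches 79.4% of Pmch wells.

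Within a class the counts were uneven across wells. In thinned Hcrt wells the variance of Htr2c was 2.83 times its mean, against 2.01 for Adra2a, 1.84 for Htr1a and 1.66 for Adra1b, where independent draws give a ratio near 1. Their means, 0.917, 0.806, 0.486 and 0.455 counts per well, fell in the same order, so the ratios do not rank these genes by unevenness. The 10% of Hcrt wells with the most Htr2c held 51.4% of its counts, and in GABA wells that share was 66.3%, with a ratio of 4.45. Gene pairs were chosen after their values were seen. Htr1a was seen in 25.9% of the Hcrt wells with Adra1b and in 30.5% of those without it. Htr1a was seen in 33.7% of Hcrt wells with Adra2a and in 26.0% of those without, and 16.6% of Hcrt wells showed both Adra2a and Htr2c. In Pmch wells 57.4% showed both Adra2a and Hrh3. These pairs share each well's depth and are given as a description only.

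Summed by coupling, the 16 Gi-coupled receptors were at 305.5 CPM in Pmch wells (197.9 to 399.4 over plates), 157.7 in GABA (92.8 to 240.7), 98.3 in Hcrt (69.6 to 124.9) and 89.4 in other wells (0 to 171). No Pmch plate overlapped with a Hcrt plate. Different genes made up this sum: Adra2a and Htr1a gave 48.2% and 25.2% of the Gi counts in Hcrt wells, Adra2a and Hrh3 gave 39.8% and 36.2% in Pmch wells, and Adra2a and Chrm2 gave 45.4% and 19.3% in GABA wells. The 10 Gq-coupled receptors were at 77.0 CPM in Hcrt, 70.7 in Pmch, 61.1 in GABA and 68.9 in other wells, with overlapping plates. Adra1b gave 36.2% of the Gq counts in Hcrt wells and 1.94% in Pmch wells, where Htr2c gave 76.4%. The 9 Gs-coupled receptors summed to 14.9, 20.6, 23.2 and 19.5 CPM, led by Drd1 in Hcrt wells (60.6%), Drd5 in Pmch wells (61.1%) and Htr7 in GABA wells (46.3%). Channel subunits summed to 26.4, 93.1, 56.7 and 55.2 CPM. These sums have no test.

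**Figure D4:**
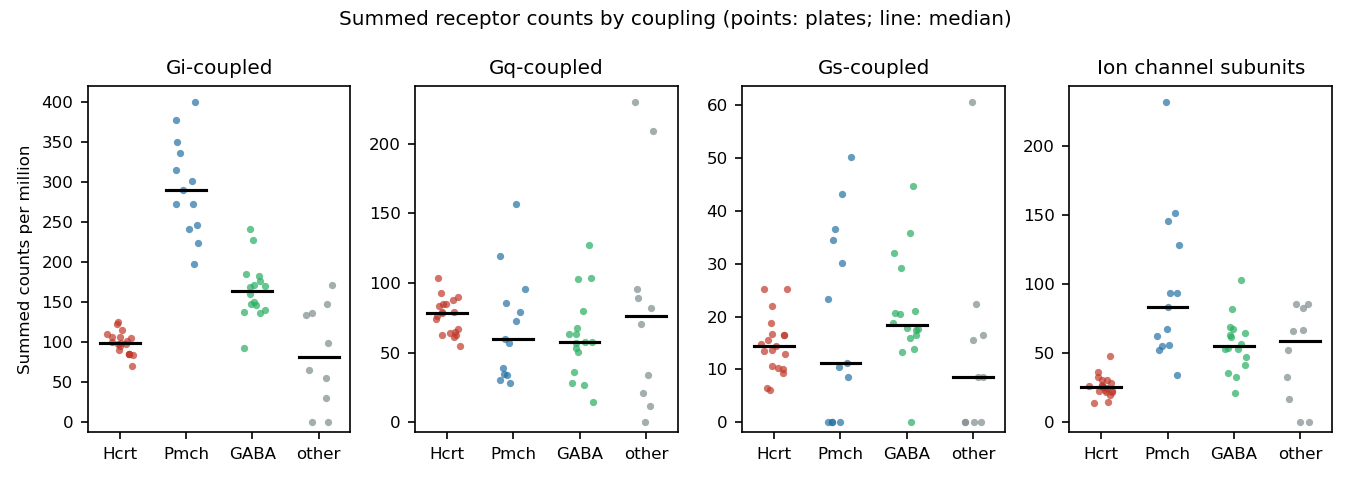
CPM summed over Gi-coupled, Gq-coupled, Gs-coupled receptors and ion channel subunits (vertical axes, each from 0) by neuron class, 1 point per plate and a line at the median. Gi-coupled sums of Pmch plates (197.9 to 399.4) lie above those of Hcrt plates (69.6 to 124.9), and Gq-coupled sums overlap in all classes.

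Downstream of the receptors, several signalling genes differed between Hcrt and GABA neurons, and values below are log2 differences, Hcrt minus GABA, read against the 34% called over all genes. Of 10 G protein alpha subunits 1 was higher in Hcrt neurons and 3 were lower: the inhibitory subunit Gnai2 was at 0.68 ± 0.11 (adjusted p = 1.99e-07), and Gnal, Gnao1 and Gna11 were at -0.98, -0.51 and -0.36. Of 18 genes of cyclic AMP synthesis and breakdown 3 were higher and 11 lower, led by the cyclases Adcy2 at -4.78 ± 0.31 and Adcy8 at 4.15 ± 0.35 and the phosphodiesterases Pde4b at -3.38 ± 0.22 and Pde10a at 1.41 ± 0.15 (adjusted p of 2.62e-13 or less). Adcy8, a calcium-stimulated cyclase, and Adcy2 therefore differed in opposite directions. The phospholipase C arm had 0 higher and 6 lower of 11, with the phospholipase Plcb1 at -4.71 ± 0.25 (adjusted p = 2.32e-28), Prkce at -1.32, Plcb4 at -1.02 and Itpr2 at -2.46.

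RGS proteins, which speed the turn-off of G proteins, were 3 higher and 7 lower of 14. Rgs6 was at 4.41 ± 0.31 (adjusted p = 2.65e-22), and Rgs8, Rgs10 and Rgs17 were at -4.59, -2.57 and -1.40. Of 4 GIRK potassium channel subunits, the effectors of Gi-coupled receptors, Kcnj5 was higher at 2.35 ± 0.54 (adjusted p = 0.000289) and Kcnj3 was lower at -1.19 ± 0.26 (adjusted p = 0.000103). Receptor kinases and arrestins had 0 higher and 3 lower of 7 tested: Arrb1 at -1.52, Grk2 at -1.27 and Arrb2 at -0.90. Of 8 nicotinic chaperones and modulators 2 were higher and 4 lower, with Lynx1, a membrane-bound inhibitor of nicotinic receptors, at -3.69 ± 0.16 (adjusted p = 3.48e-32), Lypd6 at 2.84, Ly6h at 0.69 and Tmem35a at -0.76. Of 14 genes of transmitter synthesis, transport and breakdown 4 were higher and 5 lower, with the vesicular monoamine transporter Slc18a2 at -5.22 ± 0.58, the dopamine transporter Slc6a3 at 5.44 ± 0.77, Ddc at 1.33 and the acetylcholinesterase Ache at 0.76.

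Against Pmch neurons, where 19.3% of all genes were called, 3 nicotinic modulators of 8 were higher in Hcrt neurons and 4 lower, with Lynx1 at -2.88 ± 0.21 and Lypd6 at 3.23 ± 0.30 (adjusted p = 2.10e-19 and 5.70e-15), each in the direction it had against GABA. Tmem35a, a chaperone of nicotinic receptors, was at 4.06 ± 0.62 (adjusted p = 1.65e-07), higher in Hcrt neurons here. The RGS list had 5 higher and 3 lower of 14, with Rgs6 at 5.58 ± 0.53 (adjusted p = 2.75e-15), and Kcnj5 was the only one of 4 GIRK subunits called, at 2.77 ± 0.87 (adjusted p = 0.0146). The cyclic AMP list had 4 higher and 5 lower of 18, the G protein list 4 and 2 of 10, the phospholipase C arm 2 and 2 of 11, receptor kinases and arrestins 0 and 0 of 7, and the synthesis and transport list 1 and 3 of 14. Comparisons with GABA and with Pmch neurons share the Hcrt libraries.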

How the data were processed

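Deposited values were unnormalised counts for each gene in each well, which the authors made with STARsolo 2.7.5c against GRCm38 after cutadapt 2.1.0 trimming, per the submitters' processing notes. The annotation release, strand setting and collapsing of molecular tags are not given in the sources used here. The number of genes seen per well, also a deposited count, set the well filter of 1000. Counts were summed per plate and class (58 libraries, at least 3 wells each) and tested with edgeR 4.0.16 in R 4.3.3 by its quasi-likelihood test, with the plate as a block. Genes needed 30 counts over the libraries in the fit and a count in at least 5 of them. TMM scaling had been planned. A run was made on data simulated with a mean profile shared by all classes and known changes in some genes of the GABA libraries. Factors from all genes shifted unchanged genes there, so the factors were taken from genes of at least 50 CPM. The real classes differ in many more genes, so that run does not show which scaling is right for them. Factors from all genes were kept as an alternative. DESeq2 1.42.0 was an alternative. Depth ran from 1835641 to 5067927 counts per plate and limits sparse receptors.

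Members, gene lists and tests were chosen with earlier results of these data known. Full values go to members with adjusted p under 0.05 and a log2 change of at least 1 in any of the 6 comparisons. Up to 4 genes per pathway list were named, those called with the smallest adjusted p in Hcrt against GABA; a few others were named against Pmch after their values were seen. Shares of wells carry exact (Clopper-Pearson) intervals that cover counting error only. Gene positions come from GENCODE M21, which held 99.6% of the table's gene identifiers, and promoters from RefSeq, which held 41 of the 54 members. Marker lists for neurons and non-neuronal cells defined the stricter neuron gate: 5 or more of the 8 pan-neuronal genes had to be seen, and no non-neuronal list could reach their summed count. Wells labelled qRNA entered no comparison. Not every member's own values are reported here.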

Additional observations from a re-analysis of the deposited data

Results flagged for a closer look

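In the class of other wells, 5 of 17 sets of plate values tested had 1 plate far above the rest. Chance flags about 1 in 20 such sets, but not where 9 of 10 plates are at 0, as for Htr1b, Drd1 and Drd5, since any count then stands apart. Chrm2 reached 33.2 CPM on plate 9, Chrm3 32.8 CPM on plate 5, and Htr1b 7.43 CPM on plate 3, which was 1 count. Drd1 and Drd5 each reached 10.1 CPM on plate 18, from 2 counts each, and were at 0 on the other plates of the class.

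Some receptor genes had counts in wells that entered no comparison. In the 68 wells labelled qRNA, whose content the labels do not describe, Chrnb1 had 23 counts and Chrna1 had 12. In the 21 wells labelled Empty, Adra2a had 26 counts and Chrm2 had 8. One of these wells, on plate 15, held 5682 genes, 100707 counts and 67 counts of Gad1 and Gad2, and all 26 counts of Adra2a and 6 of the 8 counts of Chrm2 came from it.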

How the results depend on the processing

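Of 51 calls of named receptor genes, 31 held under every alternative that gave a value, and none changed direction. Over all alternatives 1580 of 1659 values kept the call and 79 missed the threshold. The plate block was removed as an alternative: without the replicate block, 1 call was lost, Htr1b in GABA against other (4.06, adjusted p = 0.0545), and 4 differences that had not been called passed the threshold: Adra2a in Hcrt against GABA, Drd1 in Hcrt against other, Htr1a in GABA against other and Htr1d in Pmch against other (adjusted p = 0.0450, 0.0410, 0.0366 and 0.0138). A fit of only the 2 classes compared, on plates that held both and with the plate as a block, lost 3 calls. The number of receptor genes called changed most where fewer genes or plates were tested. With edgeR's filterByExpr, which left 10 members, it was 6 in Hcrt against GABA, 8 in Hcrt against Pmch, 2 in GABA against other and 4 in Pmch against GABA. With at least 5 wells per plate it was 5 in Hcrt against other and 1 in GABA against other, and that last comparison gave 2 with other wells below 0.2% for both peptides and 2 with neurons only; the cause was not tested. Without each plate in turn it was 12 to 14 in Hcrt against GABA and in Hcrt against Pmch, 6 to 9 in Hcrt against other, 3 to 5 in GABA against other, 5 to 7 in Pmch against GABA and 6 to 8 in Pmch against other. DESeq2 lost 10 calls, TMM scaling over all tested genes 4 and edgeR's trended dispersions 5. The choice between these last 2 settings and the ones reported was made after seeing the data. Without thinning, the median number of receptor genes per well was 4 in Hcrt and 6 in Pmch wells. Depth limits the 23 members that were not tested.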
